A study of Mus musculus with 6 samples.

Results

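The genes that make cholesterol and long-chain fatty acids, with the SREBP factors that control them, were followed across the hairpins of a knockdown series in 4T1 cells, a mouse mammary carcinoma line. The 36 genes form a list of symbols with no threshold on a measured value, out of 23481 genes in the count table. The list was chosen with earlier results of these data known. It holds 18 enzymes of sterol synthesis (the sterol arm) and 12 enzymes of fatty acid synthesis, elongation and desaturation (the fatty acid arm). The other 6 are regulators and carriers. All 36 were in the table and all 36 had enough reads to be tested. Of them, Msmo1 is listed there under its older symbol, Sc4mol. The cells, called 4T1_T in the table's title, were grown in DMEM with non-essential amino acids and infected with 1 of 3 short hairpin RNAs. shAsns-1 and shAsns-2 target Asns, the gene of asparagine synthetase, and shRenilla is the control, aimed at a luciferase that is foreign to mouse cells. Every library therefore comes from infected cells, and there is no uninfected group. The labels list a library A and a library B for each hairpin, without saying whether they are separate cultures or infections. Every p-value below thus measures the spread between these libraries, which may be technical.

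As background, SREBPs are transcription factors held in the endoplasmic reticulum as inactive precursors. Scap escorts them to the Golgi for cleavage when membrane sterols are low, and the Insig proteins hold Scap back when sterols are plentiful. The product of Srebf2 acts mainly on genes of sterol synthesis, and the main product of Srebf1 on genes of fatty acid synthesis. They bind sterol regulatory elements in promoters, usually beside sites for NF-Y (CCAAT) and Sp1 (GGGCGG). Proliferating tumour cells use both arms to build membranes.

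Promoter sequences are shown for Hmgcs1, the member with a match to the sterol regulatory element searched, and for 4 genes whose levels differed between libraries in the tests below. Each is 150 bases on the gene's own strand, 5′ to 3′, that end before the start of the gene in both annotations used, from RefSeq on build GRCm38.p6. They lie at chr13:119690201-119690350 (plus strand), chr5:4104747-4104896 (minus), chr1:169969242-169969391 (minus), chr15:82147031-82147180 (plus) and chr11:120824548-120824697 (minus). Capitals mark TCACNCCAC, CCAAT and GGGCGG on either strand, so ATTGG is CCAAT and CCGCCC is GGGCGG read on the other strand.
Hmgcs1: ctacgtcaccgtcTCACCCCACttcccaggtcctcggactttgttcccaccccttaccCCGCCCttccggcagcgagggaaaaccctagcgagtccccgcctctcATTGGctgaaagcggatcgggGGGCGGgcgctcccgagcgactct
Cyp51: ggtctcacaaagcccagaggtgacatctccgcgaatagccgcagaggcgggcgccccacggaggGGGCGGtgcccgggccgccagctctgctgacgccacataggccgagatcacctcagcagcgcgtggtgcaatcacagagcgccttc
Hsd17b7: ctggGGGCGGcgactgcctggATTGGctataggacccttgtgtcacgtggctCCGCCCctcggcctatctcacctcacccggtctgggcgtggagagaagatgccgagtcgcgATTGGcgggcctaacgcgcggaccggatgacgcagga
Srebf2: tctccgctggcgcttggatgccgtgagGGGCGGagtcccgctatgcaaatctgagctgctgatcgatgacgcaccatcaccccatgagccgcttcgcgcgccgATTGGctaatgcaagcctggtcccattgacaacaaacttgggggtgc
Fasn: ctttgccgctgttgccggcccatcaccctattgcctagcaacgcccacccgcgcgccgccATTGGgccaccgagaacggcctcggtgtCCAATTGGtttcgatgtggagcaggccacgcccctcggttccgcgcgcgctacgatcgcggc

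The RefSeq promoter table, which runs from 250 bases before to 50 after each start, held 29 of the 36 members. CCAAT or its reverse ATTGG was found in 24 of these 29 windows, or 82.8%, against 41.1% of all 27025 genes in the table and 43.5% of the 9629 of them that were tested here. CCAAT was in 14 of 15 sterol enzymes, 6 of 9 fatty acid enzymes and 4 of 5 regulators, and the windows without it were those of Acat2, Scap, Acaca, Fads2 and Elovl6. In Cyp51 the match falls past the stretch printed above. GGGCGG or CCGCCC was in 23 of 29 (79.3%), against 38.2% of all genes and 69.4% of tested genes, so the members stood nearer to the tested genes than to all genes. By arm it was in 14 of 15 sterol enzymes, 5 of 5 regulators and 4 of 9 fatty acid enzymes, and Fasn, Acaca, Acacb, Elovl5, Elovl6 and Pmvk lacked it. TCACNCCAC or GTGGNGTGA was in 1 of 29 (3.45%, Hmgcs1), against 1.44% of all genes and 1.39% of tested genes. These are letter matches in a fixed window and were not compared with binding data.

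The column of shAsns-1 B held no reads, so shAsns-1 is 1 library and the other hairpins are 2 each. Reads in genes ranged from 10244753 to 15955168 per library, and 12457 genes were tested. Levels are given in CPM, reads per 1000000 reads of the tested genes after scaling, and 3 reads correspond to 0.188 to 0.293 CPM. Asns, the targeted gene, had 58.7 CPM in shRenilla A, 56.3 in shRenilla B, 46.5 in shAsns-2 A, 44.7 in shAsns-2 B, and 108.9 in shAsns-1 A. Its level in the last thus exceeded the control, against the label (log2 fold change 0.92, SE 0.101, adjusted p = 6.27e-05), and its lower level in shAsns-2 did not pass the test (-0.34, SE 0.0882, adjusted p = 0.216). The library labelled shAsns-1 also stood apart in other ways: it had reads at 17672 genes against 15052 to 15392, 23.2% of its reads did not align against 17.9 to 20.1%, and its 1122 olfactory receptor genes summed to 41.5 CPM against 7.99 to 11.9. Its 12 epithelial markers summed to 941 CPM against 1152 to 1232 in the other 4 libraries. Each of the 12 had reads in at least 1 library, and Cdh1 was the highest at a mean of 396 CPM. Krt5 had reads only in the library labelled shAsns-1, at 0.193 CPM, and was not tested. Markers of other cells were low: 28.9 to 39.2 CPM for 9 fibroblast genes, nearly all of it Pdgfra, 4.83 to 6.93 for 8 leukocyte genes, 0.364 to 1.73 for 6 endothelial genes and 0.0692 to 0.963 for 8 adipocyte genes.

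Control cells expressed both arms well above the typical gene. To compare genes, CPM was divided by transcript length in kb and averaged over shRenilla A and B, and each gene was ranked among 12354 tested genes with a known length. The median member was at the 71.9th percentile, with 29 of 36 above the median gene. Scd2, which puts a double bond into stearoyl-CoA, was the most abundant at 157 CPM per kb (97.4th percentile). Sqle, which oxidises squalene, followed in the sterol arm at 95.3, then Msmo1, a methylsterol oxidase, at 63.7. Elovl6 (63.0) and Elovl5 (53.3), which lengthen fatty acids, Acat2 (50.5), the thiolase that opens the mevalonate pathway, Fasn (41.2), fatty acid synthase, and Acly (40.5), which makes acetyl-CoA from citrate, came next. Tm7sf2, a sterol reductase, was the lowest of the sterol arm at 2.00. Acacb was the lowest of all at 0.162 (2.06th percentile), with 13 to 33 reads per library, so its values carry little weight.

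**Figure D1:**
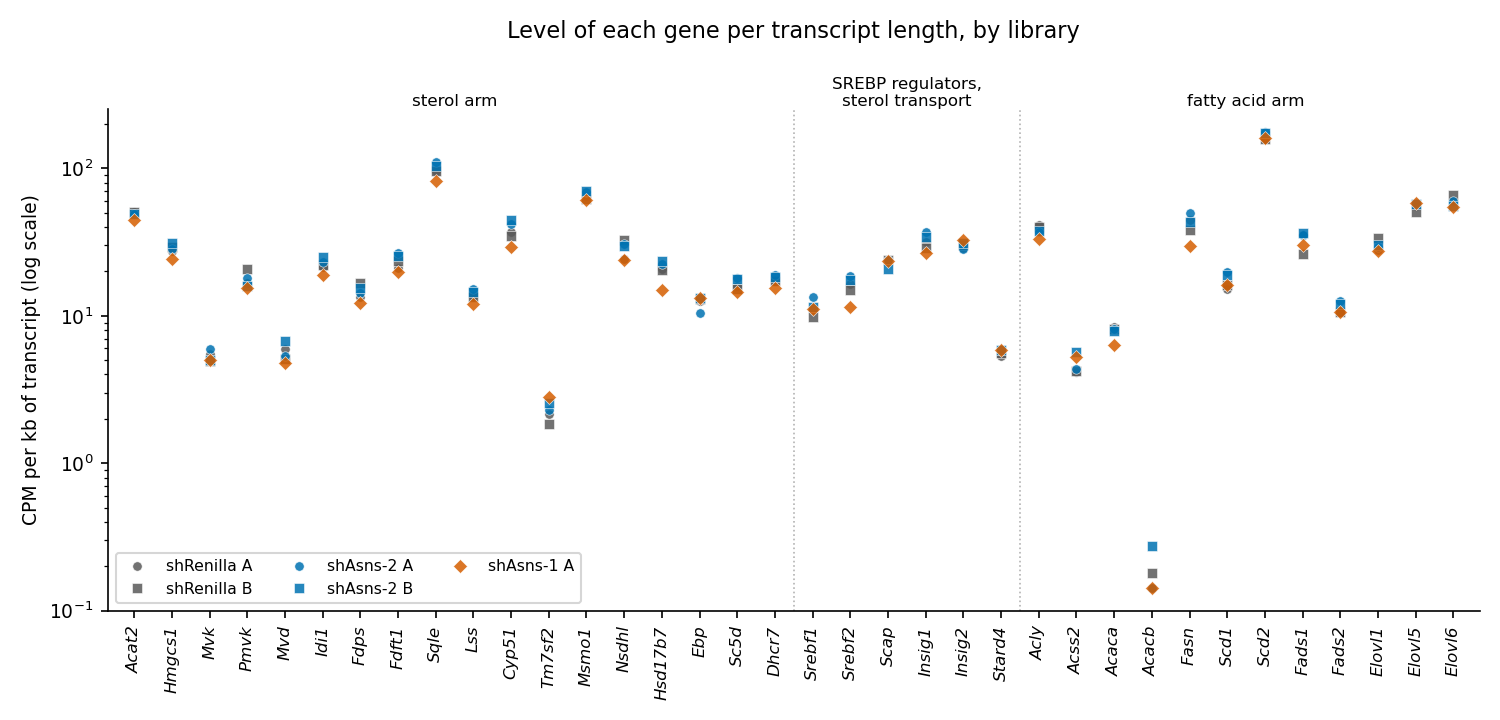
Level of the 36 genes in each of the 5 libraries, in CPM per kb of transcript on a log scale, ordered by step within the arms. Each point is 1 library; Scd2 and Sqle are the highest and Acacb the lowest, and the spread between genes is far wider than that between libraries.

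Within pairs of related enzymes 1 partner carried most of the reads. Per kb, Scd2 was 8.89 to 10.3 times Scd1 in the 5 libraries and Acat2 was 20.5 to 24.4 times Acat3. Acaca was 28.9 to 59.2 times Acacb, the other acetyl-CoA carboxylase. Acat2 and Acat3, and the Scd genes, are close copies between which reads with several alignments can be split, so these ratios and levels are uncertain. The 2 SREBP genes were nearer to each other: Srebf2 was 1.44 and 1.54 times Srebf1 in shRenilla, 1.38 and 1.53 times in shAsns-2 (A then B here and below), and 1.03 times in the library labelled shAsns-1. Insig1 to Insig2 was 1.09 and 0.954 in shRenilla, 1.29 and 1.11 in shAsns-2, and 0.823 in the library labelled shAsns-1. Both ratios were lowest in that single library, and they were not tested. Exons of another gene on the same strand cover 26.7% of the exon bases of Fdps and 12.1% of Tm7sf2. Exons on the other strand cover 18.3% of Fdft1, 13.2% of Scap and 12.1% of Hmgcs1. Whether counting used strand is not given in the sources used here. Levels of these genes are thus uncertain too, those of Fdps and Tm7sf2 with or without use of strand.

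The first comparison asks how the pathway stood in shAsns-2 against shRenilla. No member passed the test in either direction, and most members were slightly higher: 27 of 36 fold changes were positive (25 to 29 with 1 library left out), with a median of 0.14 on the log2 scale against -0.0014 over all genes tested. In edgeR's quasi-likelihood test 0.0642% of all genes were called higher (8 genes) and 0.0% lower, so calls were rare everywhere in this comparison. At an unadjusted p under 0.05, 9 members were higher and 0 lower, against 696 and 504 of the 12457 genes, and DESeq2 and limma-voom also called 0 members. Both shAsns-2 libraries lay above both shRenilla libraries for 20 of 36 members, where 20.6% of all genes did so, and below both for 4, where 20.7% did. Bulk libraries cannot tell fewer expressing cells from less RNA per cell.

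Among the regulators, Insig1, which restrains Scap and is itself a classic SREBP target, stood at 85.3 and 77.9 CPM in shRenilla and 99.3 and 92.5 in shAsns-2. Srebf2 stood at 83.0 and 76.3 CPM in shRenilla and 93.8 and 88.4 in shAsns-2. For both genes the libraries did not overlap, but neither passed (Insig1 0.23, SE 0.0860, adjusted p = 0.412; Srebf2 0.19, SE 0.0853, adjusted p = 0.492). Srebf1 was at 48.9 and 42.1 CPM in shRenilla and 57.4 and 49.1 in shAsns-2, so its closest libraries nearly met. Scap had the most negative value of the 6 regulators and carriers (-0.09, SE 0.0871), and Insig2 was at 0.0071 (SE 0.0849, 95% interval -0.17 to 0.19). Stard4, a carrier that moves sterol between membranes, was at 0.11 (SE 0.101).

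In the sterol arm 14 of 18 fold changes were positive, with a median of 0.13 and a range from -0.14 (Pmvk, a mevalonate pathway kinase) to 0.29 (Tm7sf2). Libraries did not overlap for 10 higher and 1 lower enzyme, where 20.6% of all genes were higher and 20.7% lower in this way. Cyp51, the lanosterol demethylase, was at 146.1 and 136.0 CPM in shRenilla and 165.4 and 175.2 in shAsns-2 (0.27, SE 0.0815, adjusted p = 0.289). Fdft1, squalene synthase, was at 77.5 and 87.0 CPM in shRenilla and 97.8 and 94.7 in shAsns-2 (0.23, SE 0.0863, adjusted p = 0.423). These were the largest differences among the abundant sterol enzymes, and neither passed. The early steps stood closer to the control: the 7 enzymes from Acat2 to Fdps had a median of 0.059 with 4 positive, the 2 squalene steps 0.20 and the 9 steps from Lss, which closes the sterol rings, onward 0.13 with 8 positive.

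In the fatty acid arm 8 of 12 fold changes were positive, with a median of 0.16 and a range from -0.13 (Elovl6) to 0.42 (Acacb). That median rested on single libraries: it was 0.076 without shRenilla B and 0.092 without shAsns-2 B. All 4 desaturases were higher in both shAsns-2 libraries than in both shRenilla libraries, as were 20.6% of all genes. Their median fold change was 0.21 on the log2 scale. Scd1 was at 73.5 and 77.6 CPM in shRenilla and 95.9 and 90.9 in shAsns-2 (0.31, SE 0.0836, 95% interval 0.13 to 0.48, adjusted p = 0.228). Scd2 was at 855 and 858 CPM in shRenilla and 962 and 950 in shAsns-2 (0.16, SE 0.0764, adjusted p = 0.524). Fads1 and Fads2, which desaturate polyunsaturated fatty acids, were both at about the same difference (0.22, SE 0.110, and 0.21, SE 0.0957). Fads1 was uneven in the control, at 122.7 and 90.5 CPM, against 123.0 and 125.0 in shAsns-2, so its groups barely separated. The 3 elongases had a median of -0.038, Acaca, which makes malonyl-CoA, was at -0.051 (SE 0.0830), and Acly was at -0.12 (SE 0.0784). Fasn was at 448 and 380.5 CPM in shRenilla and 498 and 435 in shAsns-2, overlapping groups (0.17, SE 0.0929, adjusted p = 0.583).

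**Figure D2:**
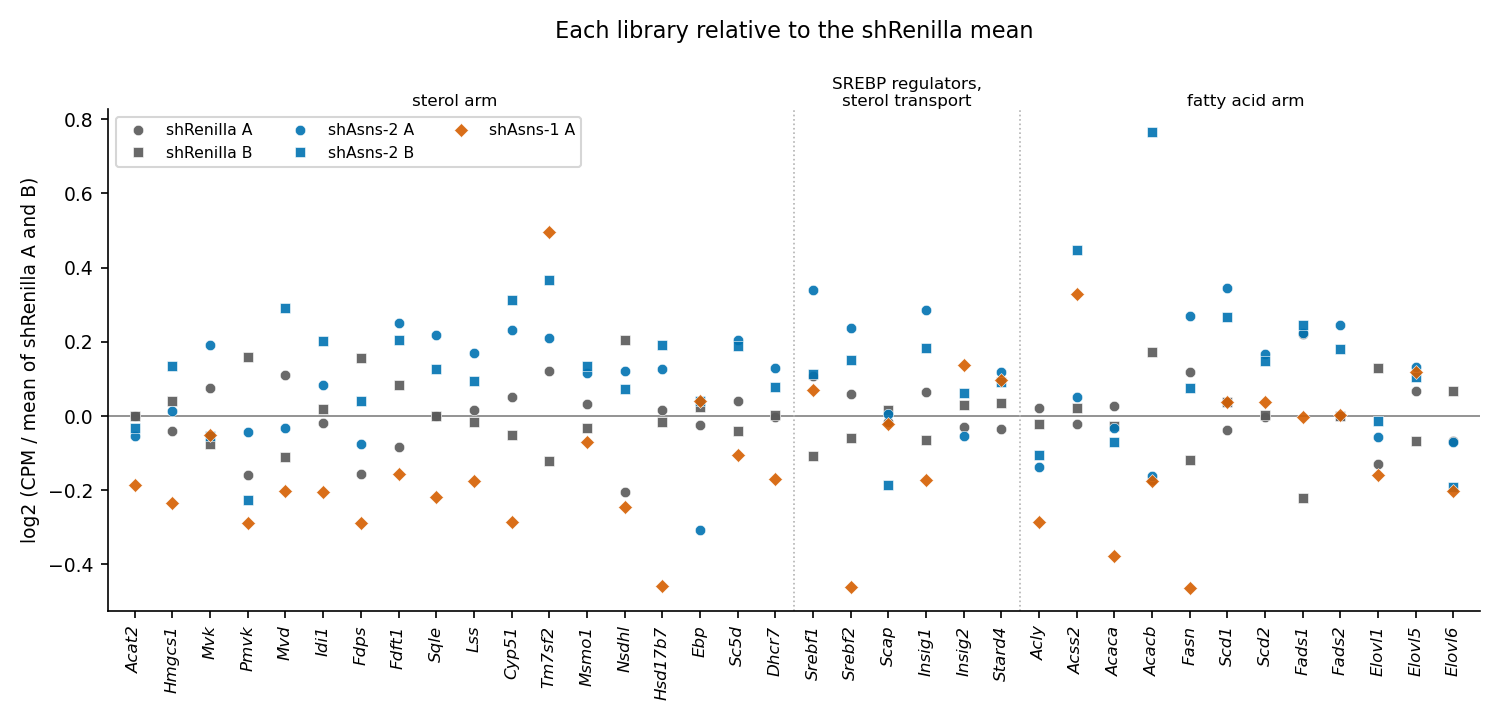
Each library's CPM for the 36 genes relative to the mean of shRenilla A and B, on the log2 scale, by arm. Grey points are shRenilla, blue shAsns-2 and orange the library labelled shAsns-1; the orange points of most sterol enzymes lie below the blue and grey ones, while those of the 4 desaturases lie close to 0.

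The second comparison set the library labelled shAsns-1 against shRenilla. Here 3 of 36 members passed the test, all lower: Hsd17b7, Srebf2 and Fasn, 1 from each of the sterol arm, the regulators and the fatty acid arm. Over all genes 2.06% were called lower and 2.31% higher. Of the 36 fold changes 26 were negative, with a median of -0.17 against -0.0090 over all genes, and at an unadjusted p under 0.05 there were 8 members lower and 0 higher, against 1189 and 1250 of the 12457 genes. The library lay below both shRenilla libraries for 24 members and above both for 8, where 38.5% and 37.4% of all genes did so. As this hairpin has 1 library, a difference between hairpins and a difference between libraries cannot be told apart.

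Hsd17b7 (chromosome 1, 169949535 to 169969241, minus strand), a ketosteroid reductase of the late sterol steps, was at 69.4 CPM in the library labelled shAsns-1, below the 96.4 and 94.3 CPM of the controls. Its fold was 0.728 (95% interval 0.625 to 0.849, log2 fold change -0.46, SE 0.105, adjusted p = 0.0204). Srebf2 (chromosome 15, 82147181 to 82205379, plus strand) was at 57.9 CPM against 83.0 and 76.3, a fold of 0.726 (0.617 to 0.854, log2 -0.46, SE 0.111, adjusted p = 0.0265). Fasn (chromosome 11, 120805846 to 120824547, minus strand) was at 299.5 CPM against 448 and 380.5, a fold of 0.723 (0.609 to 0.858, log2 -0.47, SE 0.117, adjusted p = 0.0302). In all 3 the single library lay below the lower of the controls, and the folds were of about the same size. Srebf1, the other SREBP gene, did not pass, at 47.7 CPM against 48.9 and 42.1 (0.066, SE 0.130, 95% interval -0.21 to 0.34).

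In the sterol arm 1 of 18 enzymes, Hsd17b7, passed, and 4 were lower at an unadjusted p under 0.05. By sign, 16 of 18 fold changes were negative, with a median of -0.19, and all 7 early enzymes were negative (median -0.21). Cyp51 was at 115.5 CPM against 146.1 and 136.0 (-0.29, SE 0.103, adjusted p = 0.127), and Sqle at 225.9 against 262.8 and 262.7 (-0.22, SE 0.0975, adjusted p = 0.224). Neither passed, though both lay below the controls. The exceptions were Tm7sf2, at 4.14 CPM against 3.20 and 2.70 (0.48, SE 0.303, adjusted p = 0.408), and Ebp, a sterol isomerase (0.040, SE 0.154). In the fatty acid arm 7 of 12 fold changes were negative, with a median of -0.092. That median was -0.015 without shRenilla B, and -0.030 with the GC trend removed. Differences between steps of the arm were not tested. Beside Fasn, Acaca was at 60.7 CPM against 80.4 and 77.4 (-0.38, SE 0.106, adjusted p = 0.0531), just above the threshold of 0.05, and Acacb, with its few reads, at -0.18 (SE 0.533). Acly was at 146.9 CPM against 182.0 and 176.5 (-0.29, SE 0.0982, adjusted p = 0.107). Acss2, which makes acetyl-CoA from acetate, had the most positive value of the arm (0.33, SE 0.181, adjusted p = 0.336). The 4 desaturases were near the control, from -0.022 (Fads1, SE 0.138) to 0.037 (Scd1, SE 0.105, and Scd2, SE 0.0936). Insig2 (0.14, SE 0.105) was the most positive of the regulators and carriers.

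These calls rested on few libraries. Without shRenilla A, Fasn was at -0.34 (adjusted p = 0.115) and Srebf2 at -0.40 (adjusted p = 0.0754), and only Hsd17b7 passed; fitted on these 2 groups alone, or without shAsns-2 A or B in the shared estimate of the spread, none of the 3 passed (adjusted p = 0.0639 for Hsd17b7, 0.0684 for Srebf2 and 0.0748 for Fasn on the 2 groups alone). Srebf2 also missed the threshold with DESeq2 (adjusted p = 0.0595). In this library fold changes across 5594 well expressed genes also went with GC content (Spearman -0.397, genes not being independent), and 6 of the 11 tested epithelial markers were called lower. With the GC trend removed Fasn was at -0.38 (adjusted p = 0.0906) and Srebf2 at -0.37 (adjusted p = 0.0791), while Hsd17b7 still passed; the members' median GC content was 51.3% against 50.1% over all genes tested. By gene, GC content was 57.9% in Srebf2, 57.9% in Fasn and 43.9% in Hsd17b7. The part of the marker change in these results was not tested.

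**Figure D3:**
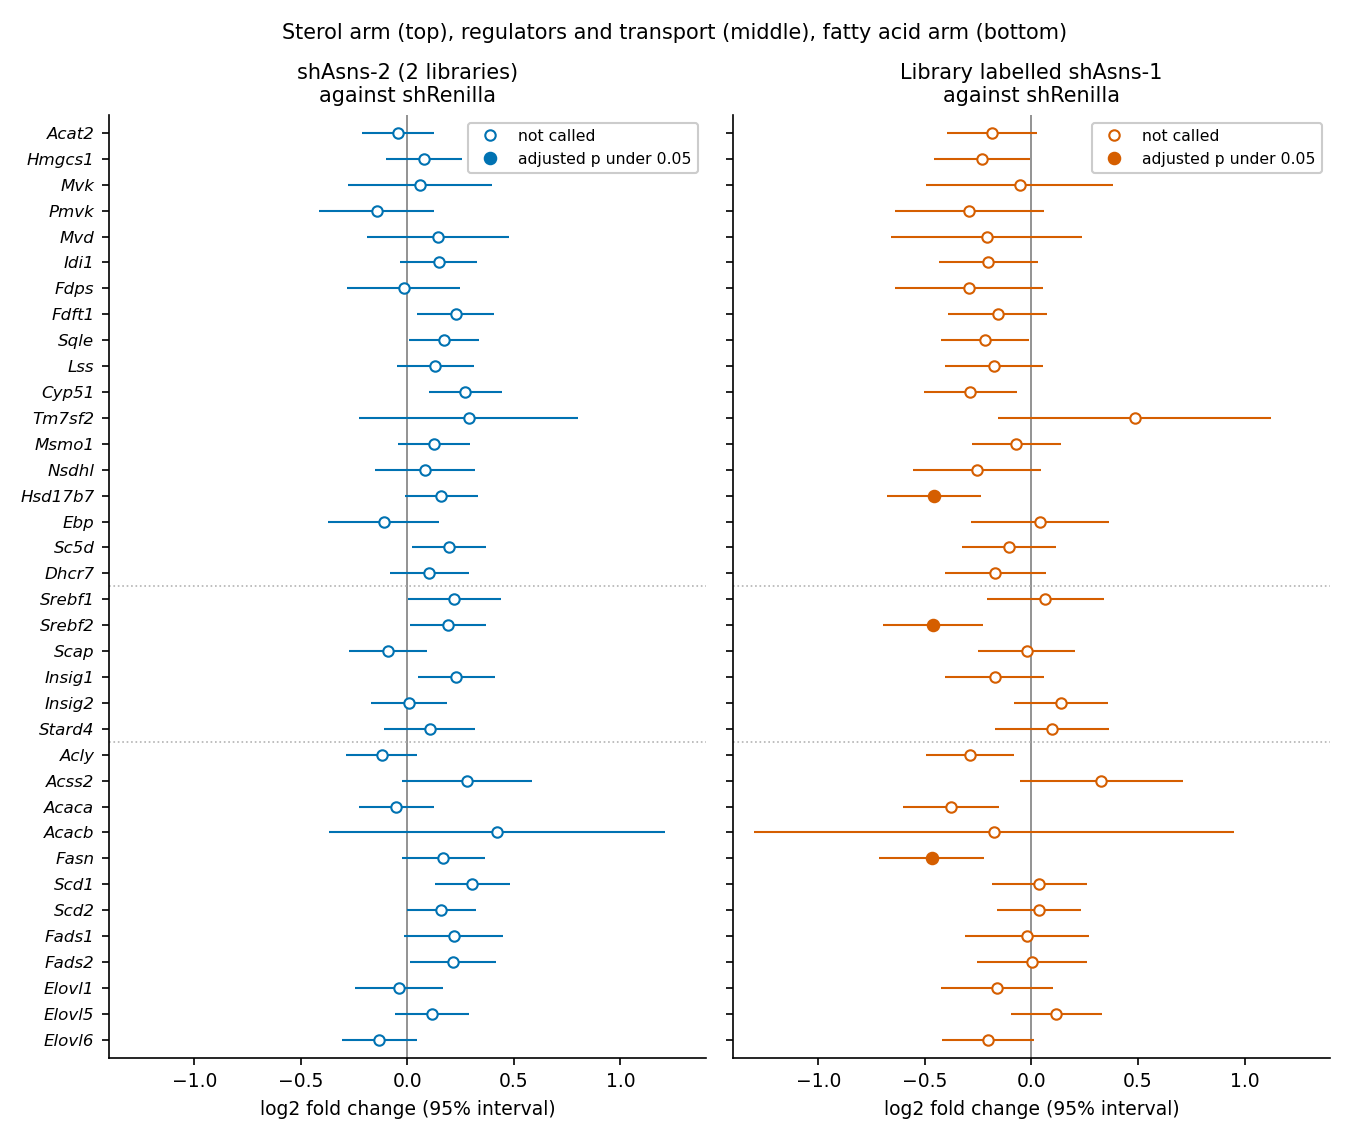
Log2 fold change with its 95% interval for each gene, in shAsns-2 (left) and in the library labelled shAsns-1 (right) against the same 2 shRenilla libraries. Filled points passed at an adjusted p under 0.05: none on the left, and Hsd17b7, Srebf2 and Fasn on the right.

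Both comparisons above use the same shRenilla libraries, so their values are only set side by side. A further test compared the shAsns-2 libraries with the 1 library labelled shAsns-1, taking its spread from the other groups, so it compares libraries and cannot separate hairpin from library. When shAsns-2 was set against the library labelled shAsns-1, 5 of 36 members passed, all higher in shAsns-2: Srebf2, Fasn, Hsd17b7, Cyp51 and Sqle. Over all genes 1.33% were called higher and 0.811% lower. At an unadjusted p under 0.05, 15 members were higher and 0 lower, against 1105 and 983 of the 12457 genes. Both shAsns-2 libraries lay above the other library for 28 of 36 members, where 39.8% of all genes did so. The median fold change was 0.25 on the log2 scale over all members, against 0.0023 over all genes.

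Srebf2 was at 93.8 and 88.4 CPM in shAsns-2 and 57.9 in the library labelled shAsns-1, a fold of 1.57 (95% interval 1.34 to 1.85, log2 0.65, SE 0.112, adjusted p = 0.00506). Fasn was at 498 and 435 CPM against 299.5, a fold of 1.56 (1.31 to 1.85, log2 0.64, SE 0.118, adjusted p = 0.00897). Hsd17b7 was at 104.1 and 108.9 CPM against 69.4, a fold of 1.54 (1.32 to 1.79, log2 0.62, SE 0.106, adjusted p = 0.00505). Srebf2, Fasn and Hsd17b7 were also called against the control. Both comparisons use the same single library labelled shAsns-1, so the calls are not independent of each other. Cyp51 (chromosome 5, 4081145 to 4104746, minus strand) was at 165.4 and 175.2 CPM against 115.5, a fold of 1.48 (1.27 to 1.72, log2 0.56, SE 0.104, adjusted p = 0.00900). Sqle (chromosome 15, 59315077 to 59331192, plus strand) was at 305.6 and 287.1 CPM against 225.9, a fold of 1.31 (1.14 to 1.52, log2 0.39, SE 0.0983, adjusted p = 0.0474). For both, shRenilla lay in between, at 146.1 and 136.0 CPM for Cyp51 and at 262.8 and 262.7 for Sqle, and neither passed the test against it in either comparison. Insig1 missed the threshold at 99.3 and 92.5 CPM against 72.4 (0.40, SE 0.110, adjusted p = 0.0645), as did Fdft1 (0.38, SE 0.110, adjusted p = 0.0806).

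The sterol arm had a median of 0.30 with 16 of 18 positive, from -0.20 (Tm7sf2, SE 0.302) to 0.62 (Hsd17b7). The fatty acid arm had a median of 0.19 with 10 of 12 positive, from -0.048 (Acss2, SE 0.181) to 0.64 (Fasn). The value closest to 0 was that of Elovl5, -0.00037 with a 95% interval of -0.21 to 0.21. Of the regulators and carriers Insig2 was the lowest (-0.13, SE 0.105), and the median of the 6 was 0.082. The calls depended on having both shAsns-2 libraries. Without shAsns-2 A, 1 member passed (Hsd17b7), and Srebf2 was at 0.61 (adjusted p = 0.0855), Fasn at 0.54 (0.175), Cyp51 at 0.60 (0.0848) and Sqle at 0.35 (0.445). Without shAsns-2 B, Srebf2 and Fasn passed, and Hsd17b7 was at 0.58 (0.0661), Cyp51 at 0.52 (0.115) and Sqle at 0.44 (0.202). With the GC trend removed, which was stronger here (Spearman 0.456 across 5594 genes), Sqle no longer passed (0.38, adjusted p = 0.0860).

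The 2 arms were then compared within each library, taking for each enzyme the log2 ratio of its CPM to the shRenilla mean. In shAsns-2 A the median of the sterol arm was 0.12 and that of the fatty acid arm 0.092. In shAsns-2 B they were 0.13 and 0.13. Both arms thus stood slightly above the control in both libraries, and the sterol median exceeded the fatty acid median by 0.031 and 0.0043. By mean, the sterol arm minus the fatty acid arm was 0.0045 in shAsns-2 A and -0.034 in shAsns-2 B. The medians of the fitted fold changes were 0.13 for the sterol arm and 0.16 for the fatty acid arm. Which arm stood higher in shAsns-2 thus depended on the summary used. In the library labelled shAsns-1 the sterol median was -0.19 and the fatty acid median -0.081, a gap of -0.11, so the sterol enzymes lay further below the control there. Both fatty acid medians of the hairpins moved with single libraries, as given above. By mean instead of median the same library gave -0.16 and -0.095, a gap of -0.060. The pooled SD of these medians between libraries of a hairpin was 0.0044 for the sterol arm and 0.018 for the fatty acid arm. In a median, enzymes higher in A and enzymes higher in B offset each other, so these SDs are no measure for the gap. By single enzyme, the median absolute log2 difference between A and B was 0.0865 in shAsns-2 and 0.0832 in shRenilla for the sterol arm. For the fatty acid arm it was 0.0535 and 0.106. With 1 library on one side the gap was not tested, and enzymes of an arm are not replicates.

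**Figure D4:**
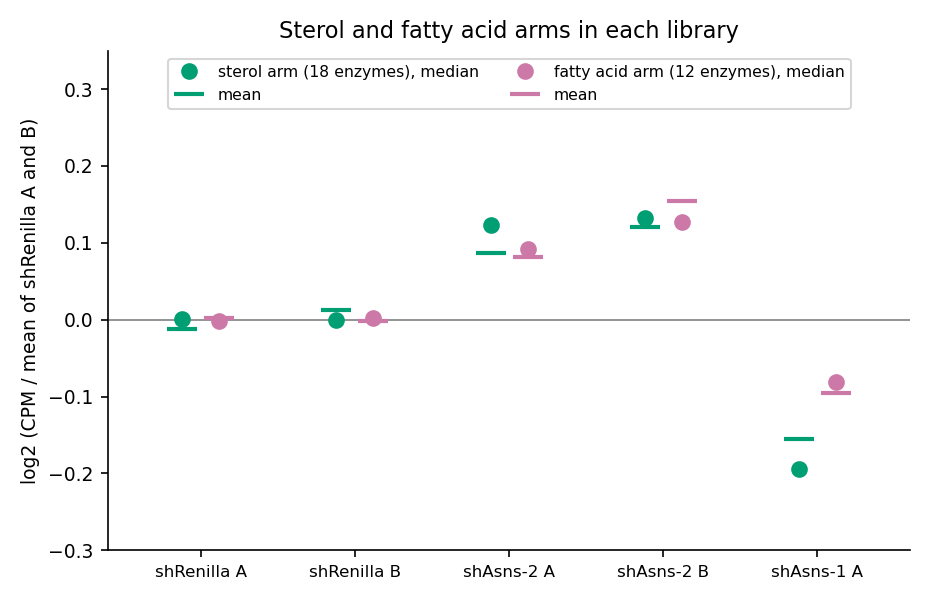
Median (point) and mean (bar) of the log2 ratio to the shRenilla mean over the 18 sterol enzymes and the 12 fatty acid enzymes, for each library. The shRenilla libraries sit at 0 because they set the reference; both arms lie near 0.1 in the shAsns-2 libraries, and in the library labelled shAsns-1 the sterol arm lies below the fatty acid arm.

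Summed reads gave the same order of the hairpins in both arms. The sterol enzymes together made 1315 and 1333 CPM in shRenilla, 1450 and 1458 in shAsns-2, and 1148 in the library labelled shAsns-1. The fatty acid enzymes made 2372 and 2303, 2545 and 2442, and 2154 CPM in the same order. In both sums the shAsns-2 libraries lay above the shRenilla libraries, and the single library labelled shAsns-1 lay below them. Without Scd2 the fatty acid enzymes made 1517 and 1445 CPM in shRenilla, 1583 and 1492 in shAsns-2, and 1276 in the library labelled shAsns-1. The shAsns-2 and shRenilla libraries then overlapped. In the library labelled shAsns-1 this sum lay below the controls by about as large a share as the sterol sum did. In sums, the gap between the arms in that library thus rested on Scd2. Scd2 alone was 36.1 to 40.8% of the fatty acid sum. Fasn was 18.9 and 16.5% of it in shRenilla, 19.6 and 17.8% in shAsns-2 and 13.9% in the library labelled shAsns-1. That library's fatty acid enzymes thus differed in make-up, with the smallest share of Fasn and the largest share of Scd2 among the libraries. Scd2 itself was near the control there, at 879 CPM against 855 and 858 in shRenilla.

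Libraries of the same hairpin also differed. The median absolute log2 difference between A and B over the 36 members was 0.084 in shAsns-2 and 0.083 in shRenilla. The widest gaps were in Acacb in shAsns-2 (0.93, at 1.26 and 2.40 CPM) and in Fads1 (0.44) and Nsdhl (0.41), a dehydrogenase of sterol demethylation, in shRenilla. A was the higher library for 20 of 36 members in shAsns-2 and for 18 in shRenilla, so neither letter was higher throughout.

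Neighbouring pathways, listed beside the 36 genes, held few calls. None of their genes passed in shAsns-2 against shRenilla. Nearest to the threshold were Mid1ip1, which promotes polymerisation of acetyl-CoA carboxylase, at 22.7 and 24.5 CPM against 16.6 and 16.9 (0.50, SE 0.113, adjusted p = 0.147), and Erlin2, an endoplasmic reticulum protein that takes part in sterol-dependent degradation, at 123.8 and 115.6 CPM against 97.0 and 94.4 (0.32, SE 0.0820, adjusted p = 0.207). Both had separate groups without a call. In the library labelled shAsns-1 Fads3, a relative of Fads1 and Fads2, fell to 22.8 CPM from 38.5 and 34.4 (-0.68, SE 0.135, adjusted p = 0.00876). Plin2, which coats lipid droplets, fell to 105.4 CPM from 138.9 and 155.8 (-0.48, SE 0.107, adjusted p = 0.0170). Osbpl9, an oxysterol-binding protein relative, rose to 132.5 CPM from 100.5 and 105.5 (0.36, SE 0.100, adjusted p = 0.0483), a call lost in 7 of the alternatives (adjusted p from 0.0538 to 0.132). Plin2 lost its call on the compared groups alone or without shAsns-2 A or B (adjusted p from 0.0543 to 0.0569). In shAsns-2 against that library, Fads3 was the 1 gene called (0.56, SE 0.138, adjusted p = 0.0419), and lost in 5 alternatives (adjusted p from 0.0578 to 0.189).

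By list, 0 of 16 tested genes of SREBP processing and turnover passed in any of the 3 comparisons, and their median was -0.024 in shAsns-2 and 0.064 in the library labelled shAsns-1, each against shRenilla. The 12 genes of the isoprenoid branch, which leaves the pathway after the early steps, also had 0 calls, with medians of -0.11 and 0.062. The 20 tested genes of sterol storage, transport and efflux had 0 calls in shAsns-2 (median 0.061) and 1, Osbpl9, in the other library (median 0.037). The 25 other genes of fatty acid synthesis, activation and elongation had medians of 0.014 and -0.024, with Fads3 the 1 call against shRenilla. Among 19 genes of glycerolipid synthesis, which builds phospholipids and triglycerides from fatty acids, the medians were -0.027 and -0.22, with Plin2 the 1 call. The 18 genes of fatty acid oxidation had medians of 0.032 and 0.076 and 0 calls. At an unadjusted p under 0.05 these 6 lists had no more than 4 genes higher and 1 lower each in shAsns-2, and in the library labelled shAsns-1 glycerolipid synthesis had 0 higher and 7 lower of its 19, against 1250 and 1189 of the 12457 genes.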

How the data were processed

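The deposited table holds raw read counts per gene, made by the authors, with no normalization. Reads were aligned with Bowtie2 to mm10 and counted with HTSeq, per the submitters' processing notes; what version of each, which annotation and whether strand was used is not given in the sources used here. RNA was extracted with Trizol and libraries made with the Nugen Ovation RNAseq V2 kit, per the labels. Of 23486 rows, 5 are tallies of reads in no gene and stayed out; unaligned and no-feature reads were 17.9 to 23.2% and 36.1 to 38.3% of all reads. The shAsns-1 B column was all 0 and was left out, so the fit planned for 6 libraries used 5 (2 residual degrees of freedom) and takes shAsns-1 A to be as variable as the rest.

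The main test was that of edgeR 4.0.16 under R 4.3.3 (filterByExpr by group, TMM factors 0.983 to 1.01, quasi-likelihood test, all groups in 1 fit; coefficient of variation between libraries 6.23%). P-values were adjusted by Benjamini-Hochberg over 12457 genes and called under 0.05. The median SE was 0.112, 0.142 and 0.144 in the 3 comparisons in the order reported. Libraries of a group differed beyond counting noise (chi-square divided by its degrees of freedom, 3.17 in shAsns-2 and 9.21 in shRenilla), so none is a library deposited again; this does not show separate cultures. Alternatives were DESeq2 1.42.0, limma-voom (limma 3.58.1), other scalings, no filter, a replicate block, removal of a GC trend, the compared groups alone and each library left out. Scripts were tested on simulated counts. Lengths, GC content and gene positions are from GENCODE M21, and promoters from RefSeq on GRCm38.p6. Members and gene lists were chosen with earlier results of these data known. Named were members called or most positive or most negative in an arm, other members by role, and of the other lists called genes and up to 2 with the smallest adjusted p.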

Additional observations from a re-analysis of the deposited data

Results flagged for a closer look

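For 5 members the 2 shAsns-2 libraries differed, by edgeR's test, from the 1 library labelled shAsns-1. This compares libraries, and hairpin and library cannot be told apart. The log2 fold change against shRenilla in shAsns-2 minus that in the library labelled shAsns-1 was 0.65 for Srebf2 (0.19 and -0.46), 0.64 for Fasn (0.17 and -0.47), 0.62 for Hsd17b7 (0.16 and -0.46), 0.56 for Cyp51 (0.27 and -0.29) and 0.39 for Sqle (0.17 and -0.22). In each gene the value was positive in shAsns-2 and negative in the library labelled shAsns-1. The 5 genes were picked by this same difference, so the signs are no separate result. Over all 36 members, 27 values were positive in shAsns-2 and 26 negative in the library labelled shAsns-1. Asns itself differed the other way between them, at 46.5 and 44.7 CPM in shAsns-2 and 108.9 CPM in the library labelled shAsns-1 (log2 -1.26, adjusted p = 5.96e-06).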

How the results depend on the processing

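No called gene changed sign, and arm medians kept theirs except where stated. In shAsns-2 against shRenilla 0 members were called under every alternative but 2: the replicate block gave 1 (Scd1, 0.31, adjusted p = 0.0422) and the block with the GC trend removed gave 2 (Scd1 and Cyp51). The block also called Plin2 (-0.29, adjusted p = 0.0440) and Asns (-0.33, adjusted p = 0.0388) lower. The sterol median was 0.13 (0.1332) with upper-quartile factors and 0.12 to 0.14 with a library left out, and the fatty acid median 0.076 to 0.20. All-gene calls, 8 in this comparison, were 114 with no filter, 178 with the block, 157 with block and GC, 2 with the GC trend removed and 0 to 47 with a library left out.

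In the library labelled shAsns-1 against shRenilla the 3 called members became 0 on the compared groups alone, 1 with the GC trend removed and 0 to 4 with a library left out. Acaca was called lower with no filter (-0.40), with the block (-0.40), with block and GC (-0.38) and without shRenilla B (-0.41). Acaca was not called in the other alternatives. The sterol median was -0.21 with no filter, -0.18 with the block, -0.19 on the compared groups, -0.17 with the GC trend removed, -0.15 with both and -0.20 to -0.16 with a library left out. The fatty acid median was -0.11 with no filter, -0.047 with the block, -0.030 with the GC trend removed, 0.0016 with block and GC, where its sign turned, and -0.13 to -0.015 with a library left out. All-gene calls, 544, were 257 with DESeq2, 919 with no filter, 924 with the block, 298 on the compared groups and 314 with the GC trend removed, and 290 to 825 with a library left out.

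In shAsns-2 against that library the 5 called members became 8 with the block, 10 on the compared groups, 8 with block and GC and 1 to 7 with a library left out. The sterol median was 0.32 with no filter, 0.27 with the block, 0.25 with the GC trend removed, 0.28 with block and GC and 0.27 to 0.30 with a library left out. The fatty acid median was 0.14 with the GC trend removed, 0.13 with block and GC and 0.14 to 0.19 with a library left out. All-gene calls, 267, were 157 with DESeq2, 608 with no filter, 875 with the block, 812 on the compared groups, 124 with the GC trend removed, 619 with block and GC and 58 to 642 with a library left out. The cause of these shifts was not tested.

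Some members' values that did not pass the test changed sign. Against shRenilla 10 did so in shAsns-2, always with a library left out. Their ranges were -0.057 to 0.19 for Mvk, -0.30 to 0.018 for Pmvk, -0.039 to 0.28 for Mvd, -0.17 to 0.14 for Fdps, -0.11 to 0.30 for Nsdhl, -0.31 to 0.040 for Ebp, -0.19 to 0.0062 for Scap, -0.055 to 0.063 for Insig2, -0.16 to 0.76 for Acacb and -0.16 to 0.096 for Elovl1. In the library labelled shAsns-1 7 did. With the GC trend removed Mvk was at 0.034, Scap at 0.066 and Fads1 at 0.035. With the block Srebf1 was at -0.040, Acacb at 0.15 and Fads2 at -0.013. Fads2 was at -0.018 with no filter, and with block and GC Scap was at 0.048 and Acacb at 0.25. With a library left out the ranges were -0.13 to 0.026 for Mvk, -0.036 to 0.18 for Srebf1, -0.00020 to 0.076 for Scd1 and -0.22 to 0.22 for Fads1. In shAsns-2 against that library 7 did. With block and GC Pmvk was at -0.025, Elovl1 at -0.0081 and Elovl5 at 0.11, and with the GC trend removed Mvk was at -0.029 and Elovl5 at 0.059. With the block Stard4 was at -0.0032 and Elovl5 at 0.041, and Elovl5 was at 0.0018 with upper-quartile factors and 0.017 with no filter. With a library left out the ranges were -0.0012 to 0.24 for Mvk, -0.16 to 0.028 for Scap, -0.0039 to 0.022 for Stard4, -0.28 to 0.12 for Acss2 and -0.014 to 0.012 for Elovl5.

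The labels do not say whether the letters A and B mark a pairing. Deviations of same-lettered libraries of shAsns-2 and shRenilla correlated at 0.0521 over 5604 genes, but 2 pairs cannot settle whether libraries were paired. The planned fit had no block, since a pairing is not stated, so the block is given here only. Fixing the N of TCACNCCAC as C left 3.45% of member promoters with a match. Depth limits Acacb, with 13 to 33 reads per library, and Tm7sf2, whose intervals span both directions. The single shAsns-1 library gives no spread of its own.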
